A study of Drosophila melanogaster with 12 samples.

Results

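The comparison described here set the CD8-tagged cells of slbo mutant ovaries against the CD8-tagged cells of wild-type ovaries. It held 6 of the 12 arrays of the series, 3 per genotype, chosen by their titles, and the arrays of the untagged cells served as a second comparison. Tagged cells are called migratory and the cells left over by the isolation nonmigratory, as in the titles. Wild-type females carried slbo-Gal4 and 1 copy of UAS-mCD8-GFP, a mouse CD8 surface protein fused to green fluorescent protein. Mutant females carried the slbo alleles slboe7b and slboLy6, 1 on each copy of the chromosome, together with slbo-Gal4 and UAS-mCD8-GFP. Both genotypes therefore carried the driver and the tag. All were adult females and RNA came from ovaries, with an age of 2 to 7 days in the labels. Of the mutant nonmigratory arrays, 1 lacked an age and tissue label and another lacked a genotype label, and the title gave the genotype. Tagged cells were pulled out with magnetic beads carrying an antibody against mouse CD8.

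The gene slbo (slow border cells) encodes a C/EBP transcription factor of the basic leucine zipper class. Border cells are a small cluster of ovarian follicle cells that leaves the anterior epithelium of the egg chamber and moves between the nurse cells to the oocyte, and in slbo mutants this movement fails. The driver slbo-Gal4 is also active in follicle cells other than border cells, such as the centripetal cells that cover the front of the oocyte, so the tagged fraction is not pure border cells. In such bulk samples, fewer cells of a type and less RNA per cell cannot be told apart. Precision is limited by having 3 arrays per group.

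The deposited signals, in arbitrary intensity units, had trimmed means of about 150 on every array, and replicate arrays of the 2 migratory groups correlated at 0.933 to 0.953 on the log2 scale. Differences are log2 values, mutant minus wild type, with their standard error (SE), and a gene is said to be called, to rise or to fall where its Benjamini-Hochberg adjusted p by limma was at most 0.05. Eggshell genes made by follicle cells were abundant in both genotypes. The 12 vitelline membrane genes had a summed signal of 97032 to 117697 in wild-type and 82434 to 106619 in mutant migratory cells, and all 12 were above the absent controls in both. The ratio of the 5' to the 3' probe sets for GAPDH, a measure of RNA length after labelling, was 0.0783, 0.0833 and 0.0947 on the wild-type migratory arrays. It was 0.113, 0.150 and 0.0932 on the mutant ones, so that 2 mutant arrays lay above all wild-type arrays. The same ratio for actin did not show this. It was 0.384, 0.230 and 0.322 on the wild-type and 0.290, 0.305 and 0.165 on the mutant migratory arrays, which overlapped.

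The targeted gene was lower on every mutant migratory array than on any wild-type one. Signals of slbo were 275, 197 and 167 on the wild-type and 44.3, 51.4 and 35.1 on the mutant migratory arrays, which did not overlap. The log2 difference of slbo in migratory cells was -2.09 (SE 0.40, 95% confidence interval -2.96 to -1.23, n = 3 per group, adjusted p = 0.013). The call was lost without wild-type replicate 1 (adjusted p = 0.0614), mutant replicate 1 (0.0511) or mutant replicate 3 (0.0606), while the difference lay between -2.25 and -1.90. With the GAPDH ratio as a covariate it was -1.91 (adjusted p = 0.154). Signals of the mutant arrays lay close to the level of control probe sets for RNA absent from flies, whose 95th percentile was 33.4 to 50.9 there. In nonmigratory cells slbo had 115, 113 and 149 in wild type and 87.3, 19.0 and 82.9 in the mutant, a difference of -1.11 that was not called (adjusted p = 0.351).

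Across all 8978 features tested, 174 were called in migratory cells, 102 higher and 72 lower in the mutant. These calls were 1.14% of all features for the higher and 0.802% for the lower direction. The changes were unequal in size. The median size was 1.69 on the log2 scale among higher features and 0.92 among lower ones, and 90 higher but 30 lower features changed at least 2-fold. Higher features started low, with a median of the wild-type mean signals of 111 that compares with 364 in the mutant. Lower features were brighter, with medians of 589 in wild type and 308 in the mutant (means of 3 arrays each). On all 174 the 3 mutant and the 3 wild-type arrays did not overlap, which held for 9.48% of all features in the higher and for 8.81% in the lower direction. In 25 of the higher and 7 of the lower features the dimmer group was not above the absent controls, and folds of such genes are given as bounds ("at least"). Without mutant replicate 1 the count was 79, and without mutant replicate 3 it was 96. With arrays centred on their medians it was 84 higher and 126 lower, with the median of all features moving from 0.01 to -0.11. With the GAPDH ratio as a covariate 39 features were called.

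**Figure D1:**
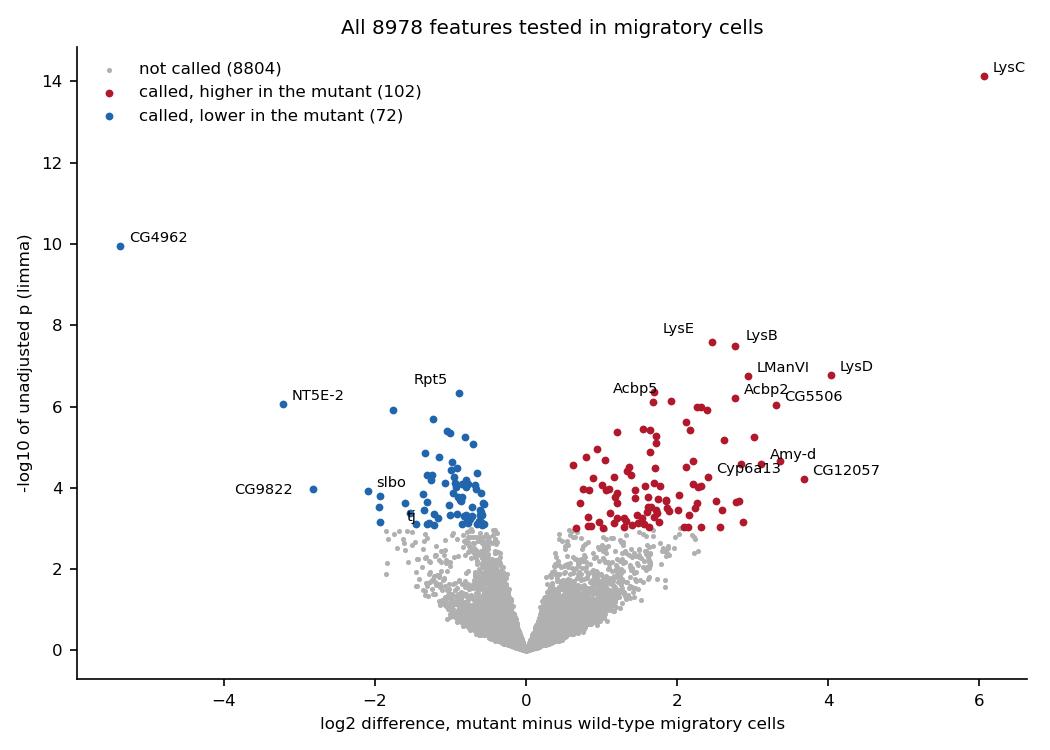
Each point is 1 of 8978 features, with the log2 difference between mutant and wild-type migratory cells on the x axis and the negative log10 of the unadjusted limma p on the y axis. The 102 higher features (red) reach farther from 0 than the 72 lower ones (blue), with LysC at 6.06 and CG4962 at -5.37 as the extremes.

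CG4962, a gene known here by its annotation number, fell most. Its signals were 1517, 1180 and 1245 on the wild-type and 23.9, 24.0 and 25.1 on the mutant migratory arrays. No mutant array came near a wild-type one, and the fall was at least 27.0-fold (adjusted p = 4.94e-07). It was low in mutant nonmigratory cells as well, with 655, 408 and 401 in wild type against 29.3, 12.0 and 58.0 (log2 -3.74, adjusted p = 6.80e-05).

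NT5E-2 encodes a member of the 5'-nucleotidase family, enzymes that remove phosphate from nucleoside monophosphates. Its signals were 289, 337 and 255 in wild-type and 45.3, 35.7 and 7.30 in mutant migratory cells, a fall of at least 5.96-fold. CG9822 had 104, 101 and 110 in wild type and 5.90, 8.60 and 11.2 in the mutant, a fall of at least 2.31-fold (adjusted p = 0.0126, and 0.0586 without mutant replicate 1). The wild-type values of CG9822 were closely spaced, and both genes had mutant values near or under the absent controls.

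Among regulators, tj (traffic jam), which encodes a large Maf factor of the basic leucine zipper class found in somatic cells of the gonad, fell. Its signals were 968, 854 and 1107 in wild-type and 357, 637 and 256 in mutant migratory cells. The lowest wild-type array was still above the highest mutant array (log2 -1.31, SE 0.27, adjusted p = 0.0199). The call of tj was lost without wild-type replicate 1 or 3 or mutant replicate 1 or 3, with adjusted p up to 0.0878. In nonmigratory cells tj gave a difference of -0.25 (adjusted p = 0.865). Tie, which encodes a receptor tyrosine kinase, had 187, 145 and 201 in wild type and 51.8, 74.6 and 68.1 in the mutant (log2 -1.36, adjusted p = 0.0262). Its call was lost without the same 4 arrays as that of tj, with adjusted p up to 0.114.

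The actin regulator cpb encodes the beta subunit of capping protein, which blocks the growing ends of actin filaments. Its signals were 849, 1431 and 955 in wild-type and 562, 405 and 452 in mutant migratory cells. The difference was -1.15 (SE 0.18, adjusted p = 0.00433), and the call was kept without each migratory array in turn. Its partner cpa was not called (log2 -0.63, adjusted p = 0.344). Of 29 tested genes of the actin cytoskeleton and myosin list, cpb was the 1 that fell and 0 rose, with a median of -0.14. The bundling protein gene sn (singed, fascin) had 479 in wild type and 288 in the mutant as group means (log2 -0.73, adjusted p = 0.128).

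Rpt5, an ATPase subunit of the proteasome cap, gave one of the most precise differences. Signals were 2593, 2875 and 2756 in wild-type and 1515, 1396 and 1531 in mutant migratory cells (log2 -0.89, SE 0.10, adjusted p = 0.000508). It was the 1 proteasome gene that fell among 25 tested, with a list median of -0.17, and 22 of the 25 differences were below 0.

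The other genes named for the size of their fall are given next, a choice that left out dim genes and features without a single annotated gene. Some of those had larger log2 differences than the genes given next. CG3777 (log2 -1.94, at least 2.23-fold) and Irc (log2 -1.93, at least 2.17-fold) were dim. A bright feature without a single gene had mean signals of 4075 in wild-type and 1150 in mutant migratory cells (log2 -1.77, adjusted p = 0.000649). Another such feature gave -1.60. CHKov1, of a family with a choline kinase-like domain (log2 -1.33), the diphthamide synthesis gene Dph1 (log2 -1.26), CG31689 (log2 -1.23), CG16956 (log2 -1.31) and CG4666 (log2 -1.04) fell and kept their calls without each migratory array. CG7054 (log2 -1.07) lost its call without mutant replicate 1 (adjusted p = 0.0590). The mitochondrial ribosomal protein gene mRpL21 (log2 -1.36) lost it without wild-type replicate 2 or mutant replicate 1 or 3, with adjusted p up to 0.0709. It was the 1 called among 64 tested genes of mitochondrial ribosomal proteins, whose median was -0.04. Tom40, the pore of protein import into mitochondria (log2 -1.31), CG17839 (log2 -1.29), CG13299 (log2 -1.22), CG4009 (log2 -1.22), CG18598 (log2 -1.17) and CG10936 (at least 2.17-fold) fell too. These 6 genes kept the call in only 1 or 2 of the 6 fits that left out 1 migratory array, with adjusted p up to 0.165.

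**Figure D2:**
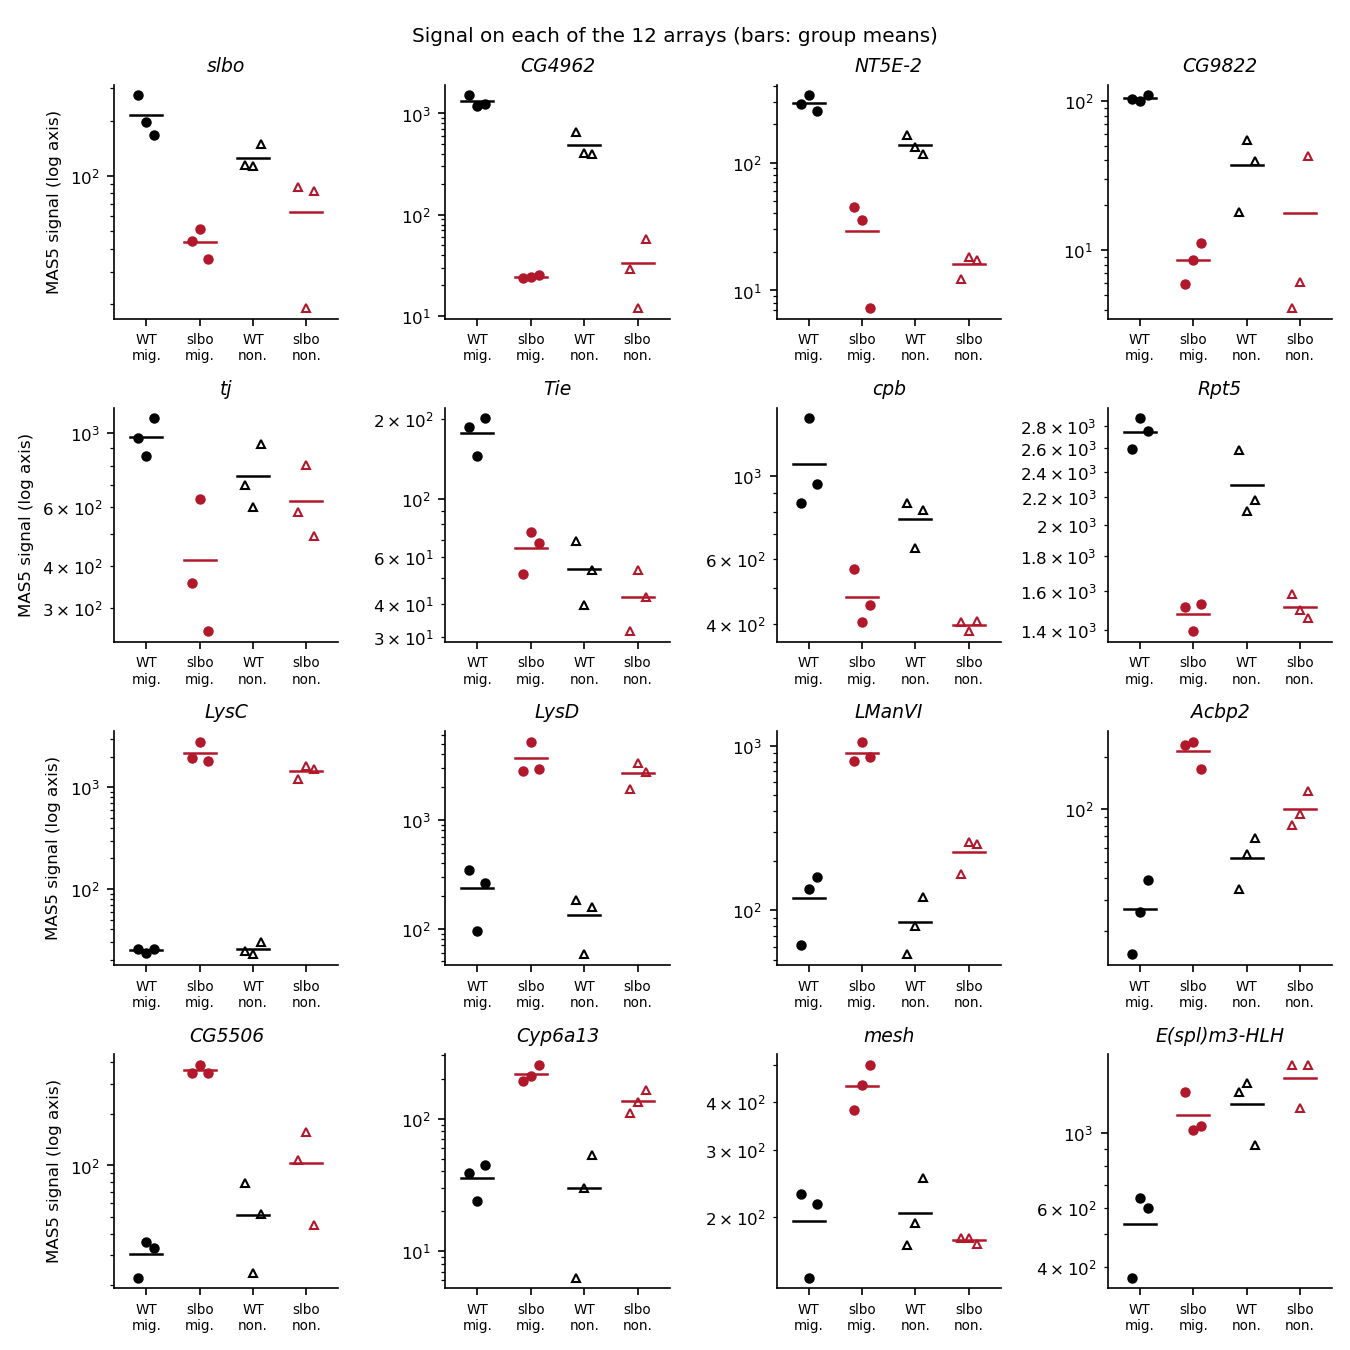
Signals on a log axis for 16 genes on each of the 12 arrays, with wild type in black, mutant in red, migratory cells as filled circles, nonmigratory cells as open triangles, and bars at group means. In CG4962, NT5E-2 and LysC the genotypes separate in both fractions, while in Tie, mesh and E(spl)m3-HLH the red and black symbols separate in migratory cells and overlap in nonmigratory cells.

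Some other called genes were picked out after their values were seen, and they form no tested group. Inx2, a gap junction protein of follicle cells and the 1 called of 6 innexin genes tested (median -0.13), had 1583, 1631 and 1660 in wild-type and 1164, 1144 and 991 in mutant migratory cells (log2 -0.56, SE 0.12, adjusted p = 0.0202). The wild-type arrays lay within 80 units of each other. wun encodes a lipid phosphate phosphatase known for steering germ cell migration in the embryo, and its signals fell from 626, 637 and 709 to 400, 388 and 356 (log2 -0.77, adjusted p = 0.011). Its other probe set gave -0.59. Gp150, a leucine-rich repeat membrane protein (log2 -0.79), JhI-21, an amino acid transporter (log2 -0.99), Pss, a phosphatidylserine synthase (log2 -0.85), bbc, a phosphotransferase of phospholipid synthesis (log2 -0.84), and the coat subunit gene epsilonCOP (log2 -0.55) fell as well.

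Nrt, which encodes the adhesion protein neurotactin, was the 1 called gene of 20 tested in the adherens junction and adhesion list. Its signals were 506, 382 and 505 in wild-type and 286, 212 and 205 in mutant migratory cells (log2 -0.97, adjusted p = 0.0145). The call was lost without wild-type replicate 1 or 3 or mutant replicate 2 or 3, with adjusted p up to 0.0730, and its other probe set, which was near background, gave -0.44. The list median was -0.29 against 0.01 over all features, and 15 of 20 differences were below 0. The cadherin gene shg, which border cells need to move, had mean signals of 197 in wild type and 176 in the mutant (log2 -0.14, adjusted p = 0.863). Septate junction and polarity genes had 0 called of 19 tested, with a median of -0.32 (Gli, log2 -0.56, adjusted p = 0.0876).

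Among genes reported to depend on slbo or to be needed with it, slbo itself was the 1 called of 5 tested. The zinc finger gene jing gave -0.82 (adjusted p = 0.359), the kinase gene Fak 0.13 (adjusted p = 0.907), and sn and shg the values above. The list median was -0.73, with slbo among its members. In nonmigratory cells the median of these 5 genes was 0.18.

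Pathways that guide or time border cell movement are given next, and with 1.14% and 0.802% of all features called higher and lower, lists of this size would hold 0 or 1 call at the background share. Of 17 tested genes of guidance receptors and their relay 0 were called, with a median of -0.02, and the receptor gene Pvr gave -0.21 (adjusted p = 0.652). Of 7 JAK-STAT genes 0 were called, with mean signals of 257 and 249 for Stat92E. Of 11 ecdysone pathway genes 0 were called, with a median of -0.38 and 9 differences below 0, as in Hr3 (log2 -0.62, adjusted p = 0.311). Of 18 genes of the JNK and Dpp pathways 0 were called. Within them the ligand gene dpp had 121 in wild type and 43.5 in the mutant as group means (log2 -1.35, adjusted p = 0.0767).

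The Notch target E(spl)m3-HLH, a basic helix-loop-helix repressor, rose. It had 372, 641 and 600 in wild-type and 1328, 1024 and 1051 in mutant migratory cells (log2 1.10, SE 0.21, adjusted p = 0.0126). The groups did not overlap, and the call was lost without mutant replicate 1 (adjusted p = 0.0728). It was the 1 called of 13 Notch pathway genes, whose median was 0.29. Its relative E(spl)mbeta-HLH gave 0.38 (adjusted p = 0.208) and Hesr -0.76 (adjusted p = 0.104).

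Eggshell genes were abundant in both genotypes, as given above. Fcp3C, a follicle cell protein of the vitelline membrane list, had 3033, 2995 and 2776 in wild-type and 1441, 2142 and 1826 in mutant migratory cells (log2 -0.72, adjusted p = 0.0236). The call was lost without wild-type replicate 1 or 2 or mutant replicate 1 or 3, with adjusted p up to 0.115. It was the 1 called of 12 vitelline membrane genes, with a median of -0.15. ndl (nudel), a protease made by follicle cells that acts in dorsal-ventral patterning of the embryo, had 2430, 2493 and 2491 in wild type and 1516, 1458 and 1564 in the mutant (log2 -0.71, SE 0.11, adjusted p = 0.00242). Both groups were tight, and the call was kept without each migratory array. In nonmigratory cells ndl gave -0.07 (adjusted p = 0.908). Of 8 chorion genes 0 were called in migratory cells, with a median of -0.58 (Cp15, log2 -0.62, adjusted p = 0.0673). In nonmigratory cells 4 of the 8 fell, against 0.356% of all features called lower there.

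**Figure D3:**
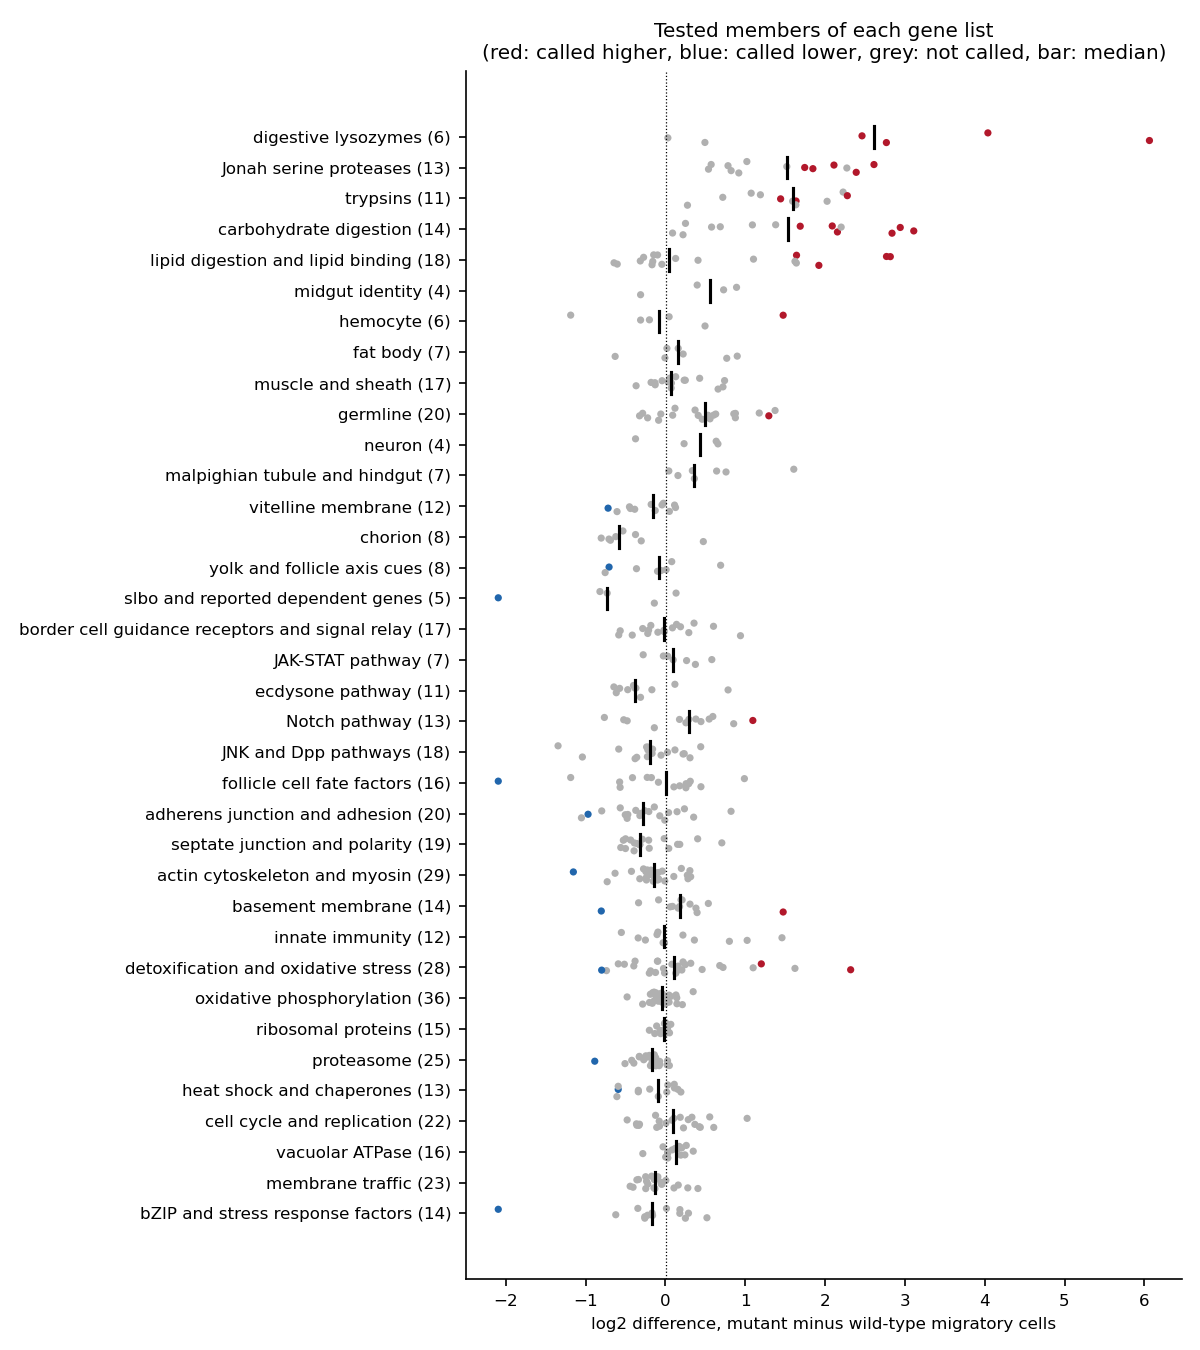
Each row is a gene list with the number of tested members in brackets, and each point is the log2 difference of 1 member between mutant and wild-type migratory cells, with called members in red or blue, a bar at the list median and a dotted line at the median of all features, 0.01. The lysozyme, Jonah protease, trypsin and carbohydrate lists have medians between 1.52 and 2.62, and the lists of follicle cell pathways hold at most 1 or 2 called members each.

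Transcripts of digestive enzymes held the largest rises of the comparison. They were counted over 5 lists, which were chosen with earlier results of these data known and are together called digestive here. The lipid list among them also holds lipid-binding proteins that are not enzymes, such as Acbp2, Acbp5 and Acbp6. Of 62 tested members 22 rose and 0 fell, against 1.14% of all features called higher. The median difference was 1.41 over the 62, or 1.0 with the 13 members that have only a bound set to it, against 0.01 over all features. The 74 genes of these lists that were on the array had summed signals of 19291, 14568 and 25183 on the wild-type and 51727, 67822 and 52203 on the mutant migratory arrays. Every mutant array was above every wild-type array.

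Lysozymes cut bacterial cell walls, and in flies most members of this family are made in the gut. LysC had 25.8, 23.2 and 25.5 in wild-type and 1942, 2821 and 1825 in mutant migratory cells, a rise of at least 49.6-fold. LysC is annotated as a pseudogene in RefSeq Release 6, and its probe set and those of LysB, LysD and LysE are of a type that can bind related transcripts. LysD rose from 346, 95 and 262 to 2791, 5233 and 2963 (log2 4.04, SE 0.44, adjusted p = 0.000267). LysB had 918, 438 and 1047 in wild type and 4120, 6834 and 4865 in the mutant (log2 2.77). LysE rose from 872, 459 and 548 to 3012, 4060 and 3108 (log2 2.46, SE 0.23, adjusted p = 7.47e-05). LysS, with mean signals of 904 and 892, and LysP, with 27.3 and 46.7, were not called (log2 0.03 and 0.50).

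The Jonah genes encode serine proteases secreted by the gut. Of 13 tested, 5 rose and the other 8 were not called, with all 13 differences above 0 and a median of 1.52. Jon25Biii had 460, 395 and 1018 in wild-type and 3107, 4417 and 3203 in mutant migratory cells (log2 2.61, adjusted p = 0.00209). Jon25Bii (log2 2.39) and Jon99Fii (log2 2.11) rose and kept their calls without each migratory array. Jon65Aii (log2 1.75) and Jon65Aiii (log2 1.85) kept it in 2 of the 6 fits, with adjusted p up to 0.0917.

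Of 11 trypsin genes 3 rose, with all 11 differences above 0 and a median of 1.59, or 1.19 with bounds. epsilonTry had 383, 173 and 336 in wild type and 815, 916 and 951 in the mutant (log2 1.64, SE 0.26, adjusted p = 0.00348). lambdaTry (log2 1.44) lost its call without wild-type replicate 2 or mutant replicate 1 or 2, with adjusted p up to 0.0832. zetaTry rose at least 2.08-fold and lost its call without mutant replicate 3 (adjusted p = 0.0574).

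Genes of carbohydrate digestion gave 6 rises among 14 tested and a median of 1.54, or 1.39 with bounds. LManVI, an alpha-mannosidase of the lysosomal type, had 61.7, 135 and 159 in wild-type and 802, 1058 and 855 in mutant migratory cells (log2 2.94, SE 0.32). Its neighbour LManV had 45.6, 225 and 301 in wild type and 1145, 1435 and 833 in the mutant (log2 2.84), while a dim second probe set of LManV gave 0.50. The amylase gene Amy-d had 57.9, 33.9 and 129 in wild type and 486, 815 and 582 in the mutant (log2 3.11, adjusted p = 0.00553). All wild-type values of these genes lay under all mutant values, and the calls were kept without each migratory array. The maltase genes Mal-A1 (log2 2.16), Mal-A4 (log2 1.69) and Mal-A2 (at least 2.62-fold) rose less firmly. Mal-A1 was called in 1 of the 6 fits that left out an array, that without wild-type replicate 3. Mal-A4 was called without wild-type replicate 1 or 3, and Mal-A2 in 0 of the 6, with adjusted p up to 0.189 among these 3 genes.

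The lipid list was divided. Of 18 tested genes 4 rose, 0 fell, and the median was 0.04. Acyl-CoA binding proteins carry fatty acyl-CoA inside cells, and 3 of 5 tested genes of this family rose, against 1.14% of all features. The family was counted after the values were seen, and these 3 are among the 4 rises of the list. Acbp5 had 256, 336 and 512 in wild type and 1283, 1483 and 1321 in the mutant (log2 1.92, SE 0.24, adjusted p = 0.000628). Acbp2 rose at least 4.53-fold, from 14.6, 25.7 and 39.3 to 234, 245 and 171, and Acbp6 rose from 66.6, 51.3 and 72.9 to 208, 192 and 241 (log2 1.64). All 3 kept their calls without each migratory array. mag (magro), a lipase of the gut, rose at least 3.68-fold but was called in 1 of the 6 such fits, that without wild-type replicate 3, with adjusted p up to 0.0831.

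The replicate arrays kept the same order across many of the 22 digestive genes that rose. Wild-type replicate 3 was the highest of its group in 16 of the 22 and wild-type replicate 2 the lowest in 17, and mutant replicate 2 was the highest of its group in 16. The count of 22 was between 15 and 25 when 1 of the 6 migratory arrays was left out, 11 with the GAPDH ratio as a covariate, and 1 with the mean level of these lists as a covariate.

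Markers of midgut cell identity were low. Their 10 genes on the array had a summed signal of 211 to 372 in wild-type and 325 to 473 in mutant migratory cells, so that these sums overlapped. Their mean log2 levels did not overlap, with 4.61, 4.68 and 4.86 on the wild-type and 5.01, 4.98 and 4.99 on the mutant migratory arrays. In each genotype 3 of the 10 were above the absent controls, and the gut endoderm factor GATAe had mean signals of 9.57 in wild type and 9.93 in the mutant. Of the 4 tested 0 were called, with a median of 0.56 and 3 differences above 0, as in cad (caudal, log2 0.73, adjusted p = 0.633). The part of gut tissue in the digestive result was not tested.

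**Figure D4:**
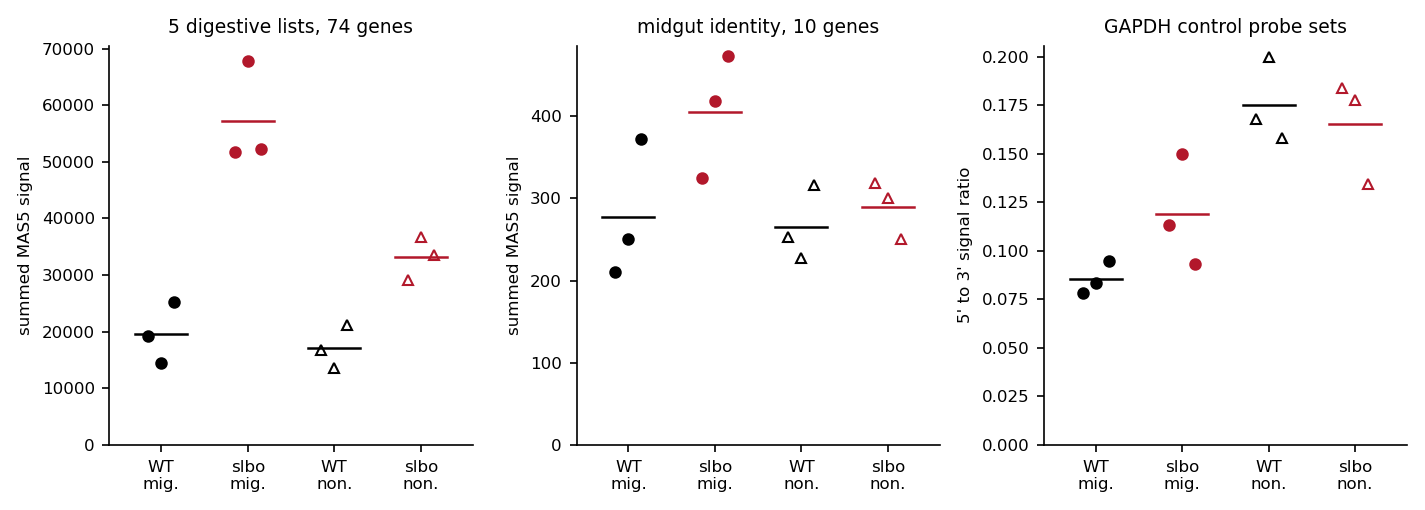
Values on each array in the 4 groups, with bars at group means, for the summed signal of the 74 digestive genes (left), the summed signal of the 10 midgut identity genes (middle) and the 5' to 3' ratio of GAPDH (right). Mutant migratory arrays lie at 51727 to 67822 in the left panel, above the highest wild-type array at 25183, while the genotypes overlap in the middle panel.

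Genes outside the digestive lists also rose by large amounts, and whether these genes have digestive functions was not examined here. CG5506 had 22.1, 35.7 and 32.9 in wild-type and 345, 387 and 350 in mutant migratory cells, a rise of at least 7.88-fold (adjusted p = 0.000628). CG31323 rose at least 5.02-fold, CG10910 at least 4.71-fold, and CG12057 by 3.68 on the log2 scale, from 36.6, 21.5 and 148 to 644, 1019 and 615. These 4 kept their calls without each migratory array. CG8997 (at least 3.51-fold), CG11911 (log2 2.52) and CG10911 (log2 2.57) rose but were called in 1 of the 6 such fits, that without wild-type replicate 3, with adjusted p up to 0.174. CG12057 and CG11911 were each under the absent controls on 2 of the 3 wild-type migratory arrays, which limits their differences. CG6295 (at least 3.44-fold) was called in the fit without mutant replicate 3 alone and CG13323 (log2 2.77) in those without wild-type replicate 1 or 3, with adjusted p up to 0.132.

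Cytochrome P450 enzymes, which oxidise hormones, fats and toxins, gave 7 rises and 0 falls among 44 tested genes, a family that was counted after the values were seen. Of all features 1.14% were called higher and 0.802% lower. The median of the 44 was 0.26. Cyp6a13 had 38.8, 24.0 and 44.5 in wild-type and 191, 209 and 255 in mutant migratory cells, a rise of at least 4.42-fold (adjusted p = 0.00889). Cyp9b2 rose from 55.1, 64.9 and 90.3 to 399, 363 and 360 (log2 2.32, SE 0.29, adjusted p = 0.000628), while a second, dim probe set gave 0.39. Both kept their calls without each migratory array. The others were Cyp6a14 (at least 2.99-fold), Cyp6d5 (log2 2.17), Cyp308a1 (at least 2.53-fold), Cyp12a4 (log2 0.82) and Cyp305a1 (log2 0.71). In the list of detoxification and oxidative stress, 2 of 28 rose, Cyp9b2 and the glutathione transferase GstE3 (log2 1.2), and 1 fell, GstD4. GstD4 had 822, 858 and 670 in wild type and 374, 516 and 455 in the mutant (log2 -0.80, adjusted p = 0.0319). Its call was lost without wild-type replicate 1 or 2 or mutant replicate 1 or 3, with adjusted p up to 0.142.

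A few other genes that rose were likewise picked out after their values were seen, and they form no tested group. mesh, a membrane protein of the smooth septate junctions found in gut and renal epithelia of flies, had 230, 139 and 216 in wild-type and 380, 444 and 499 in mutant migratory cells (log2 1.17, adjusted p = 0.00881). Peritrophin-15a, of the chitin-binding peritrophic matrix proteins, rose by 1.17 (adjusted p = 0.043). It was the 1 called of 6 peritrophin genes tested, whose median was 0.28 and whose lowest difference was -0.62. The metabolic genes Gdh (glutamate dehydrogenase, log2 0.62, adjusted p = 0.00575) and Pepck1 (phosphoenolpyruvate carboxykinase, log2 1.53, adjusted p = 0.0359) rose, as did Hrb87F, an RNA-binding protein, from 318, 406 and 352 to 715, 781 and 744 (log2 1.05, adjusted p = 0.00508).

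The lists of other cell types had 4 to 20 tested genes, in which the background shares of 1.14% and 0.802% give 0 or 1 call, so nothing is read from their counts. Of 6 tested hemocyte (blood cell) genes 1 rose, Pxn (peroxidasin), a peroxidase of the basement membrane, with 58.7, 54.3 and 20.4 in wild-type and 127, 136 and 120 in mutant migratory cells (log2 1.48, adjusted p = 0.0427). Its call was kept in 1 of the 6 fits, that without wild-type replicate 1, with adjusted p up to 0.131. The hemocyte markers Hml, NimC1 and eater had mean signals between 8.37 and 16.9 in both groups. In the basement membrane list Pxn rose and PH4alphaEFB, a prolyl hydroxylase that modifies collagen, fell from 3223, 2616 and 2922 to 1640, 1700 and 1653 (log2 -0.80, SE 0.12, adjusted p = 0.00182), with 12 of 14 not called. Its second probe set gave -1.15. Of 20 germline genes 1 rose, swa (swallow), which anchors RNA in the oocyte (log2 1.30, adjusted p = 0.0345). The call of swa was lost without any 1 of the 6 arrays (adjusted p 0.0531 to 0.140), and a second, dim probe set gave -0.26. The germline median was 0.50, or 0.39 with bounds, and its 21 genes on the array summed to 2773 to 3789 in wild-type and 3539 to 4467 in mutant migratory cells, ranges that overlap. Their mean log2 levels per array did not overlap, at 6.45 to 6.99 in wild-type and 7.00 to 7.36 in mutant migratory cells. Of 17 muscle, 7 fat body, 4 neuron and 7 Malpighian tubule and hindgut genes 0 were called, with medians of 0.07, 0.16, 0.44 and 0.36. All 7 differences of the Malpighian tubule and hindgut genes were above 0. Their summed signals were 463 to 546 in wild-type and 592 to 735 in mutant migratory cells, which did not overlap. Sums of the hemocyte list did not overlap either, though its mean log2 levels did. Sums of the muscle, fat body and neuron lists overlapped.

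The counts of the housekeeping and stress lists were also near the background shares of 1.14% and 0.802%, so nothing is read from them. Of 36 oxidative phosphorylation genes 0 were called (median -0.04), as were 0 of 15 ribosomal protein genes (median -0.01), 0 of 16 vacuolar ATPase genes (median 0.14), 0 of 23 membrane traffic genes (median -0.13) and 0 of 22 cell cycle genes (median 0.09). Of 12 innate immunity genes 0 were called (median -0.02). Among 13 chaperones Gp93, the Hsp90 relative of the endoplasmic reticulum, fell from 4633, 4441 and 6018 to 3508, 3358 and 3067 (log2 -0.59, adjusted p = 0.0143). Its call was lost without mutant replicate 3 (adjusted p = 0.0733). In the list of basic leucine zipper and stress response factors slbo was the 1 called of 14, and crc (ATF4) gave -0.26 (adjusted p = 0.208). Of 16 follicle cell fate factors slbo was again the 1 called, and tj was in neither list.

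The same genotypes were compared in nonmigratory cells, on separate arrays. There 28 features (0.312%) rose and 32 (0.356%) fell. Of the 174 features called in migratory cells, 160 had the same sign in nonmigratory cells, against 55.7% of all features. Of the 102 higher ones 20 (19.6%) also rose there, which is 71.4% of the 28. Of the 72 lower ones 13 (18.1%) also fell there, which is 40.6% of the 32. LysC had 24.5, 22.7 and 30.4 in wild-type and 1203, 1634 and 1528 in mutant nonmigratory cells, and LysD rose there by 4.36. The median difference of the 102 higher features was 1.69 in migratory and 0.77 in nonmigratory cells, where the first value is that of features chosen for it. The 74 digestive genes summed to 13550 to 21131 in wild-type and 29195 to 36792 in mutant nonmigratory cells.

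**Figure D5:**
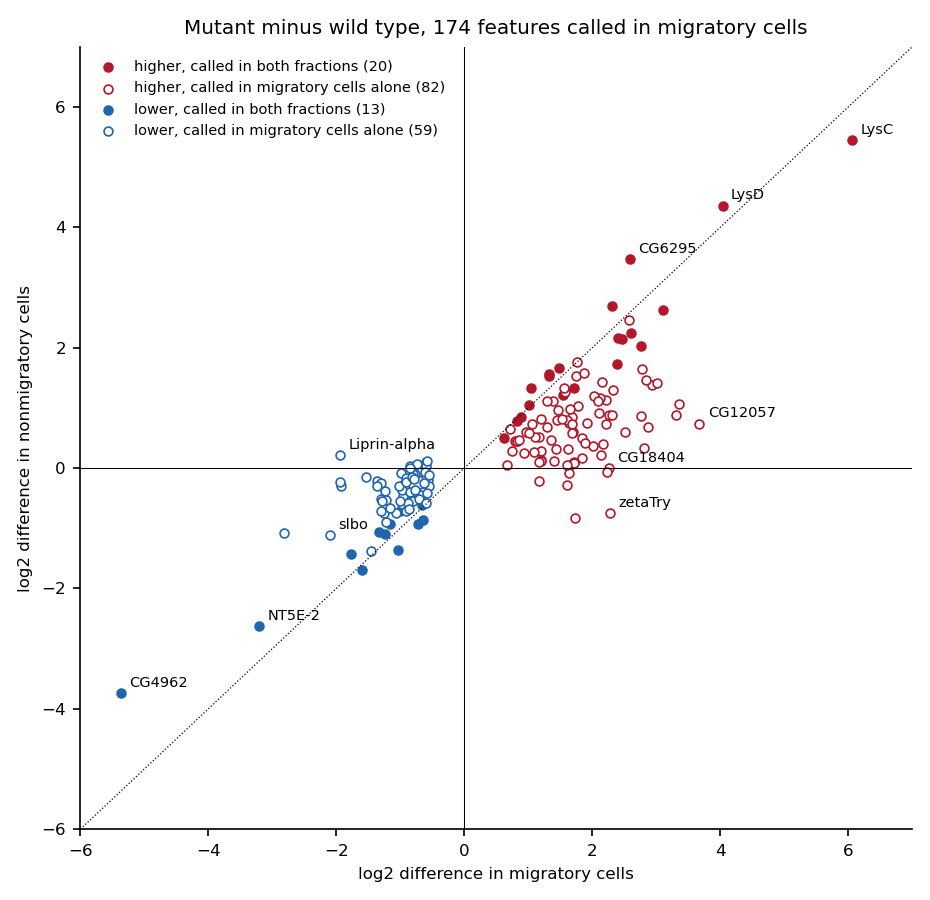
Log2 difference between mutant and wild type in migratory cells (x axis) and nonmigratory cells (y axis) for the 174 features called in migratory cells, with filled symbols for those called in the same direction in both fractions and a dotted line of equality. LysD lies near that line (4.04 and 4.36), CG4962 lies nearer to 0 in nonmigratory cells (-5.37 and -3.74), and CG12057, CG18404 and zetaTry lie below the line.

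The test of the difference between the fractions called 0 of 8978 features by limma (0%), with 603 at an unadjusted p of at most 0.05 and a lowest adjusted p of 0.213. No genotype difference can therefore be named as particular to migratory cells. The test took the 12 arrays as independent, and a fit that pairs the fractions of each genotype by replicate number was not run. The 8 genes with the lowest p were CG18404, CG11200, Acbp6, teq, zetaTry, CG7322, mesh and Edg78E. CG18404 had 97.9, 39.8 and 58.7 in wild-type and 356, 326 and 293 in mutant migratory cells, and in nonmigratory cells 94.0, 87.5 and 70.6 in wild type and 64.8, 87.2 and 101 in the mutant. Its difference between fractions was 2.27 (SE 0.40, adjusted p = 0.213). Acbp6 gave 1.64 in migratory and -0.08 in nonmigratory cells (adjusted p of the difference 0.213), and mesh 1.17 and -0.21 (0.36). CG11200 gave -0.20 in migratory cells and rose by 0.94 in nonmigratory cells (0.213).

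Some of the genes that rose lie next to each other. In the RefSeq Release 6 gene order, 13 of 90 placed higher genes (14.4%) had another higher gene as a direct protein-coding neighbour, against 1.31% of all tested genes. They were LysB, LysD and LysE, the pairs LManV and LManVI, Mal-A1 and Mal-A2, Jon25Bii and Jon25Biii, Jon65Aii and Jon65Aiii, and Cyp6a13 and Cyp6a14. Of 64 lower genes 0 had a lower neighbour. Whether probe sets of such neighbours bind each other's transcripts was not tested. Called genes lay on all large chromosome arms, at 1.45% of tested genes on X, 1.78% on 2L, 2.06% on 3R, 2.19% on 3L and 2.27% on 2R, the arm of slbo.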

How the data were processed

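Each array of the series measured RNA of 1 ovarian cell preparation on an Affymetrix fly array. The authors deposited linear intensity signals. The submitters' processing notes name MAS5, whose version and scaling target are not given in the sources used here. Of 14010 probe sets 44 were controls, 12443 had 1 gene in the platform annotation, 327 several and 1196 none. Where a gene had several probe sets, the one with the highest mean level on the log2 scale was used. Signals were taken as log2 after adding 7.50, which is 5% of the trimmed mean, so differences of dim genes are understated. The 8978 of 12367 features above the 40th percentile on at least 3 arrays were tested. The fit used limma 3.58.1 (R 4.3.3), with 4 group means over 12 arrays, with an intensity trend in the variance, 8 residual degrees of freedom and Benjamini-Hochberg adjustment over all features of a comparison (threshold 0.05). The fit was tested on simulated data.

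The 23 control probe sets for RNA absent from flies gave a background, their 95th percentile on each array. Where the mean of the dimmer group was at or under the mean of that percentile, the fold is a bound, the brighter group's mean log2 value against the higher of that percentile and the signal on each array. Named genes were slbo, the 20 largest called changes in each direction among single-gene features whose arrays did not overlap and whose brighter group was above the median, called members of each list (at most 6) or the 2 with the lowest p, and the 8 with the lowest p for the difference between fractions. Any other gene was picked out after its values were seen. The 36 lists matched 600 of 783 symbols. Members and lists were chosen with earlier results of these data known. The design text calls the replicates biological. Promoter motifs were not analysed here. Alternatives were quantile normalization, median centring, other filters and added constants, no variance trend, array weights, a replicate block, fits of 2 groups, means over probe sets, 2 covariates and leaving out each array. Python 3.11.15 with numpy 2.4.6, pandas 2.3.3 and matplotlib 3.10.9 prepared tables and figures.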

Additional observations from a re-analysis of the deposited data

Results flagged for a closer look

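Among the 177 features that were called in migratory cells or named for the difference between fractions, 3 had every mutant array on one side of every wild-type array in migratory cells and on the opposite side in nonmigratory cells. Over all 8978 features 41 (0.457%) had that pattern. Of the 3, Gp93 was called in migratory cells. The other genes, teq and Edg78E, were included only for their low p for the difference between fractions. The count among the 177 is therefore not read against that share. For Gp93 the difference between the fractions, migratory minus nonmigratory, was -0.70 on the log2 scale, with 4633, 4441 and 6018 against 3508, 3358 and 3067 in migratory cells and 3022, 3067 and 2962 against 3509, 3090 and 3143 in nonmigratory cells, wild type first. It did not pass the test of that difference (adjusted p = 0.423). For the serine protease gene teq the difference was -1.11 (adjusted p = 0.26). For the cuticle protein gene Edg78E it was 2.94 (adjusted p = 0.423), with 20.3, 4.60 and 17.4 against 26.0, 45.7 and 44.0 in migratory cells, values near or under the absent controls. Groups of 3 arrays were not tested for outlying arrays.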

How the results depend on the processing

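The count of 174 calls in migratory cells became 100 without a variance trend, 115 in a fit of only 2 groups, 39 with the GAPDH ratio and 3 with the digestive list mean as a covariate, and ranged from 79 to 190 when 1 array was left out. The count of 60 in nonmigratory cells became 16 without a variance trend and 22 with the digestive mean, and ranged from 16 to 70 with 1 array left out. The difference between fractions stayed at 0 in all settings run except without wild-type migratory replicate 3, with 2 calls. For slbo in migratory cells the GAPDH ratio gave -1.91 (adjusted p = 0.154) and the digestive mean -2.06 (adjusted p = 0.651), and leaving out 1 array gave -2.25 to -1.90. The 22 digestive rises became 11 and 1 with these covariates and 15 to 25 with 1 array left out. The digestive mean differs between genotypes, while the GAPDH ratio overlaps between them. That ratio was 0.0783 to 0.0947 in wild-type and 0.0932 to 0.150 in mutant migratory cells. In nonmigratory cells it was 0.158 to 0.200 in wild type and 0.134 to 0.184 in the mutant. Fewer calls with either covariate do not show a cause. The actin ratio was not used as a covariate. With the digestive mean 7 genes reversed: Amy-d (-0.69), CG8997 (-0.40), CG13323 (-1.03), Jon25Biii (-0.13), CG10911 (-1.74), Jon65Aiii (-0.85) and Mal-A1 (-1.50). With median centring, 210 features were called, 84 higher and 126 lower. Deviations of same-numbered migratory arrays correlated at 0.01, -0.08 and -0.01 between the genotypes. No pairing of the genotypes by replicate number was thus seen across features. Same-numbered migratory and nonmigratory arrays of a genotype were not compared in this way. Their digestive sums ran in the same order, with 19291, 14568 and 25183 in wild-type migratory and 16768, 13550 and 21131 in wild-type nonmigratory cells. In the mutant they were 51727, 67822 and 52203, and 29195, 36792 and 33530. Whether same-numbered arrays shared a preparation or batch was not tested, and the main fit took all 12 arrays as independent. With the replicate block 175 features were called (157 of them shared with the 174), slbo kept its call (adjusted p = 0.0166), 5 of the named genes missed the threshold (Tom40, CG17839, CG4009, CG18598 and swa), and no count moved by over 1.5 times. Of 64 called genes named or listed, 32 kept their calls without each migratory array. Signals near the absent controls limit the dim genes, and the cause of these changes was not tested.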
